A study of Mus musculus with 4 samples.

Results

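Mammalian tissues make reactive oxygen species on purpose through membrane NADPH oxidases and remove them through peroxidases, and the colon epithelium, which faces dense bacteria, uses both. The genes described here are the catalytic subunit of the colonic oxidase NOX1 (Nox1) with its organizer (Noxo1) and activator (Noxa1), the dual oxidase Duox2 with its maturation factor Duoxa2, the inducible nitric oxide synthase Nos2, and the glutathione peroxidases Gpx1, Gpx2 and Gpx4. They were chosen by name, with earlier results of these data known. Of 10 genes in the set, 9 were analysed, with 35 transcripts among the 141738 transcripts of 55203 genes listed in each library, and 1 further gene of the set was not analysed here.

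The data were 4 RNA-seq libraries of intestinal tissue from wild-type C57BL/6NTac mice, adult males aged 8 to 12 weeks that were kept specific-pathogen-free (SPF). The first group was 2 libraries from tissue processed with 4 mM ribonucleoside vanadyl complex (RVC), which inhibits ribonucleases, and the second was 2 libraries from tissue labelled fresh frozen. All 4 carried one protocol text, which describes an RVC rinse, and only the label tells how the fresh-frozen tissue was handled. Every library had a batch number of its own, and batch cannot be told apart from group. Nothing in the labels says that the libraries came from separate animals, so p-values measure only the spread between these samples, which may be technical. The series gives bulk expression as a reference for imaging of transcripts in tissue sections, and no separate question is stated for RVC against fresh frozen.

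The tissue label reads ileum, whereas the protocol names distal colon. Markers were those of colon in all 4 libraries: summed FPKM (fragments mapped to a transcript, scaled to its length and to the library's mapped fragments) of 12 colon markers was 5369 to 7583, that of 12 ileum markers was 167 to 207, and 4 ileum markers (Fgf15, Apoa4, Defa17 and Defa22) were listed at 0 throughout. Relative depth was 81.8% in RVC 1, 79.8% in RVC 2 and 72.6% in fresh frozen 1, taking fresh frozen 2 as 100%. The absolute number of reads is unknown, and the median half-width of the deposited 95% confidence bounds was 16.9% to 19.4% of a transcript's FPKM. In bulk tissue, fewer cells of a type and less RNA per cell cannot be told apart.

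NOX1 moves electrons from NADPH across the membrane to oxygen and releases superoxide, and it needs an organizer and an activator protein at its cytosolic face. The DUOX enzymes release hydrogen peroxide instead, and leave the endoplasmic reticulum only with their DUOXA partner. Glutathione peroxidases reduce peroxides with electrons from glutathione: GPX1 is the widespread cytosolic form, GPX2 the form typical of gut epithelium, and GPX4 reduces lipid peroxides in membranes and restrains ferroptosis, a form of cell death driven by iron and lipid peroxidation. In mouse these 3 enzymes, and the secreted GPX3, are selenoproteins: a UGA codon, which otherwise ends translation, is read as selenocysteine at the catalytic site.

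The coding sequence around that codon is shown for the 4 selenocysteine genes because it is where the peroxidases carry their active site. Transcripts whose annotated coding sequence lacks the codon are not annotated to encode the selenocysteine enzyme, even where their exons hold its bases. Each run is 45 bases of GRCm39, 5′ to 3′ on the coding strand, with the selenocysteine codon (TGA in DNA) in capitals, located from the GENCODE vM39 annotation.
Gpx1, chr9:108216629-108216673 (+), codon 47 in exon 1 of 2: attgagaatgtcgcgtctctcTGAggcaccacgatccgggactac
Gpx2, chr12:76842009-76842053 (-), codon 40 in exon 1 of 2: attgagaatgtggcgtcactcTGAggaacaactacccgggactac
Gpx3, chr11:54798061-54798105 (+), codon 73 in exon 2 of 5: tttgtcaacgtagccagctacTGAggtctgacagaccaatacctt
Gpx4, chr10:79890550-79890594 (+), codon 73 in exon 3 of 7: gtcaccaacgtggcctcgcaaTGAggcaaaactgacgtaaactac
Gpx1 and Gpx2 had the same base at 39 of the 45 positions. Gpx4 matched Gpx1 at 25 and Gpx2 at 27, and Gpx3 matched the other 3 genes at 21 to 24.

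Levels were compared as gene FPKM, the sum over a gene's transcripts, which is per transcript length. The 3 peroxidases headed the order in the mean of the 4 libraries, at the 93.2 to 96.7 percentile of tested genes. Duox2 came next at the 72.3 percentile, and the 3 NOX1 components and Duoxa2 lay between the 34.5 and 48.1 percentiles. Nos2 was lowest. Gpx1 was above Gpx2 in 4 of 4 libraries with ranges that did not touch, and so were Gpx4 above Duox2, Duox2 above Noxa1 and Duoxa2 above Nos2. The order of Gpx1 and Gpx2 holds for gene sums only. The most abundant Gpx1 transcript was at 104.15 and 115.72 FPKM in RVC, and at 102.55 and 91.63 in fresh frozen. That of Gpx2 was below it in RVC, at 62.36 and 74.05 FPKM, and above it in fresh frozen, at 106.51 and 99.52. The ranges of Gpx2 and Gpx4 overlapped, as did those of each neighbouring pair among Noxa1, Noxo1, Nox1 and Duoxa2. The Gpx4 level leaves out a near-identical copy, Gpx4-ps2, listed at 17.7 to 26.5 FPKM, some of whose reads may come from Gpx4.

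**Figure D1:**
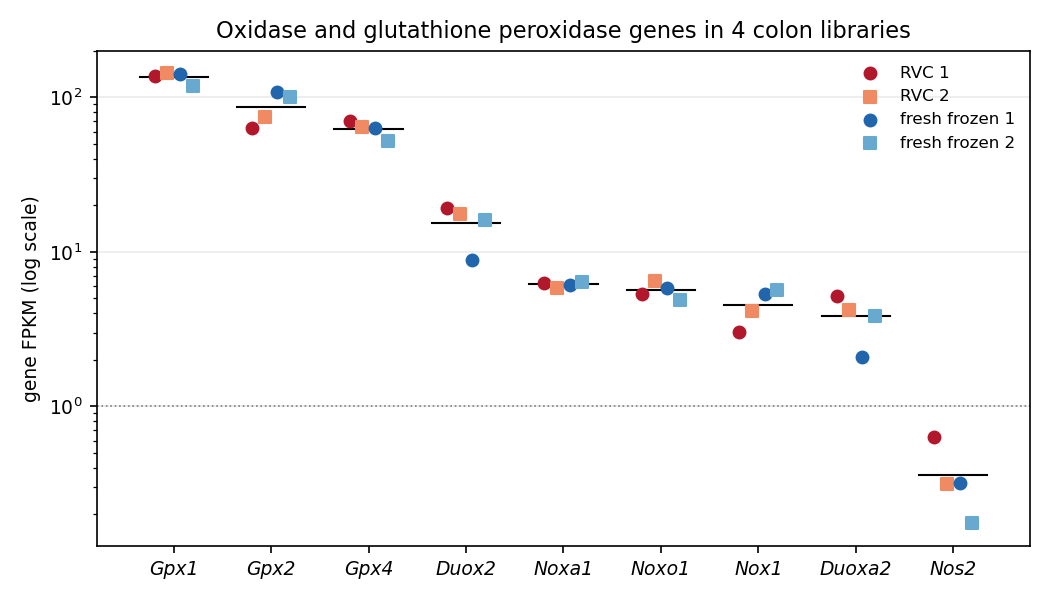
Gene FPKM on a log scale (vertical) for 9 genes in order of mean level (horizontal). Each point is 1 library, colours and shapes mark the 4 libraries, horizontal bars are means over the 4 libraries, and the dotted line marks 1 FPKM, the mean required for testing. Gpx1 lies at 118.34 to 143.22 FPKM, Nos2 lies below 1 FPKM in every library, and fresh frozen 1 is the low point of Duox2 and Duoxa2.

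Groups were compared with limma on log2(scaled FPKM + 1), 2 libraries against 2, and fold changes are on that scale, which understates changes of low genes. Of 13771 genes with a mean of at least 1 FPKM that were tested, 0.0363% passed at an adjusted p under 0.05, 0.0145% with higher and 0.0218% with lower values in RVC. None of the 9 analysed genes was among them: 8 were tested, with adjusted p from 0.129 to 0.916, and Nos2 fell below the minimum. At an unadjusted p under 0.05 there were 4 of 8, Duox2 and Duoxa2 with higher estimates in RVC and Nox1 and Gpx2 with lower ones, where 18.4% of all tested genes passed that level (9.38% higher and 8.99% lower). The 2 groups did not overlap in 5 of 8 genes, 3 higher and 2 lower in RVC, a share near the 53.2% of all tested genes (26.5% higher and 26.6% lower). The median log2 fold change of the 8 was 0.12, against 0.0066 over all tested genes.

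**Figure D2:**
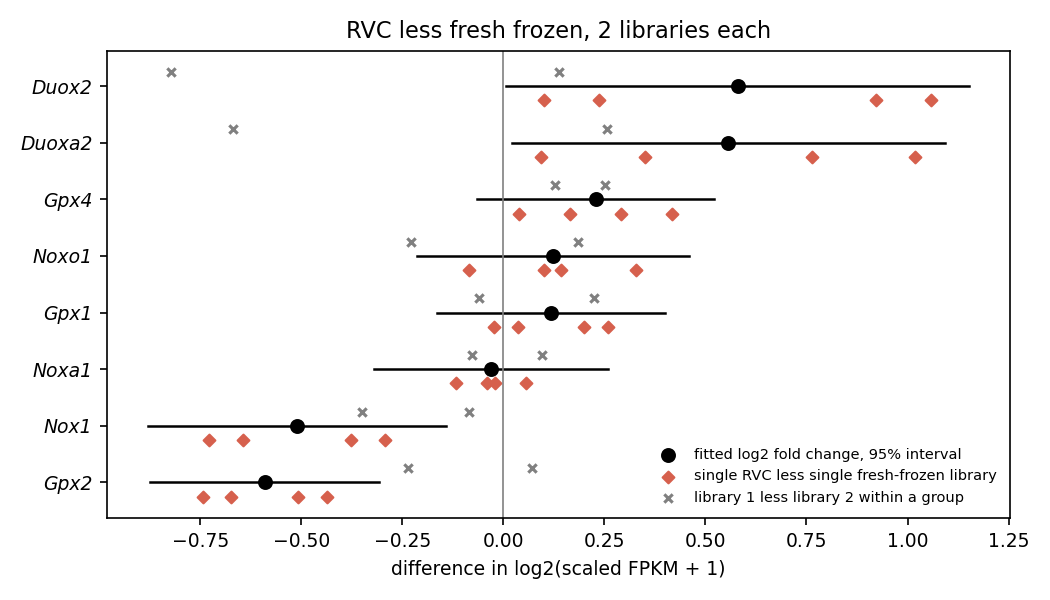
Difference between RVC and fresh frozen in log2(scaled FPKM + 1) (horizontal) for the 8 tested genes (vertical). Black points and lines are limma estimates with 95% intervals, red diamonds the 4 differences between single libraries of the 2 groups, and grey crosses library 1 less library 2 within a group. For Gpx2 and Nox1 the 4 diamonds lie below 0, from -0.74 to -0.44 and from -0.73 to -0.29, and for Duox2 they spread from 0.10 to 1.06.

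Of the NOX1 complex, Nox1 (ENSMUSG00000031257, chrX:132987170-133122705) was listed at 3.02 and 4.14 FPKM in the first and second RVC library, and at 5.36 and 5.63 FPKM in the first and second fresh-frozen library. Both RVC libraries were below both fresh-frozen libraries. The log2 fold change was -0.51 (SE 0.157, limma adjusted p = 0.179), with a 95% interval of -0.88 to -0.14, a difference that did not pass the adjusted threshold. Without RVC 1, the lowest library, the estimate was -0.34, and the unadjusted p rose from 0.0133 to 0.104. Nearly all of the level, 95.5% on average and 83.3% in RVC 2, came from the coding transcript ENSMUST00000033610.

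For both partners of NOX1 the groups overlapped. Noxa1 (ENSMUSG00000036805, chr2:24975679-24985161), which encodes the activator, was listed at 6.32 and 5.88 FPKM in RVC against 6.14 and 6.40 in fresh frozen, and had the smallest spread of the 9 genes (coefficient of variation 3.74%). Its log2 fold change was -0.030 (95% interval -0.32 to 0.26, limma adjusted p = 0.916). Noxo1 (ENSMUSG00000019320, chr17:24915208-24919503), which encodes the organizer, was listed at 5.36 and 6.48 FPKM in RVC against 5.83 and 4.91 in fresh frozen. Its log2 fold change was 0.12 (95% interval -0.21 to 0.46, limma adjusted p = 0.661).

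Relative to Nox1, both partners were listed higher in RVC by gene sums. The ratio of Noxo1 to Nox1 was 1.78 and 1.56 in RVC and 1.09 and 0.872 in fresh frozen. That of Noxa1 to Nox1 was 2.09 and 1.42 in RVC and 1.14 in each fresh-frozen library. The groups did not overlap in either ratio; the ratios were not tested, and they share Nox1 as denominator. With the most abundant transcript of each gene in place of the sum, the mean ratio of Noxo1 to Nox1 was 0.560 instead of 1.32, which puts Noxo1 below Nox1. Noxo1 was then at 1.92 and 1.62 FPKM in RVC against 3.70 and 2.49 in fresh frozen. Nox1 was then at 3.02 and 3.45 FPKM in RVC against 5.36 and 5.56 in fresh frozen. Both were lower in RVC, and the groups overlapped in that ratio.

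The Noxo1 value has a limit that the other genes do not share to the same degree. In GENCODE vM39, 64.8% of its exon bases lie opposite exons of Tbl3, which was listed at 5.20 to 6.36 FPKM, and a further 5.68% opposite Gfer, at 14.1 to 17.2 FPKM. No strand setting is stated, so reads of these genes and of Noxo1 may not be separable. The transcript with the highest mean, ENSMUST00000141095, has no annotated coding sequence and lies entirely opposite exons of other genes. It was listed at 1.92 and 1.62 FPKM in RVC against 3.70 and 2.49 in fresh frozen, and carried 43.7% of the gene sum on average. The coding transcript ENSMUST00000019464, of whose bases 61.3% are so placed, went the other way, at 2.40 and 2.82 FPKM in RVC against 1.88 and 2.00 in fresh frozen. Neither passed the threshold over transcripts (limma adjusted p = 0.309 and 0.423). Taking the top transcript in place of the sum gave a log2 fold change of -0.55 for Noxo1, and leaving transcripts under 300 nt out of the sum gave -0.10, so its direction depends on how transcripts are combined. The shared share was 17.1% for Nox1, with Cstf2, and 3.05% for Noxa1, with Entpd8 (31.3 to 37.6 FPKM). Cstf2 was listed at 5.55 and 5.89 FPKM in RVC against 6.46 and 6.61 in fresh frozen, the same order of libraries as Nox1. All bases of Nox1 opposite Cstf2 lie in its main coding transcript. The part of Cstf2 reads in the Nox1 difference was not tested. Tbl3 likewise had the order of libraries of Noxo1, whereas Gfer did not, and Entpd8 did not have that of Noxa1.

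Among the other oxidase subunits of the family, 7 of 11 were tested and 0 passed the adjusted threshold, with 1 of 7 at an unadjusted p under 0.05. Rac1, the small GTPase that activates NOX1 and NOX2, was the most abundant at 187 ± 3.53 FPKM (SD, n = 4). Cybc1, a chaperone of the phagocyte oxidase, followed at 10.5 ± 1.57 FPKM, with a log2 fold change of 0.31 (SE 0.121, limma adjusted p = 0.245). Nox3, the oxidase of the inner ear, was listed at 0 in all 4 libraries. Cybb, the catalytic subunit of the phagocyte oxidase NOX2, was at 1.05 to 1.60 FPKM, below Nox1 in each library, although macrophage markers were present at a summed 36.7 to 59.2 FPKM. Of the neutrophil markers, Mpo and Elane were listed at 0 throughout, and 8 of the 9 markers summed to 0.457 to 0.934 FPKM; the ninth, Ly6g, went against these with 170 to 333 FPKM. Cybb and Ly6g were named here after their values were seen.

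Duox2 (ENSMUSG00000068452, chr2:122109728-122128930) was the most abundant oxidase of the set. It was listed at 19.3 FPKM in RVC 1 and 17.5 FPKM in RVC 2, while fresh frozen 1 had 8.87 FPKM and fresh frozen 2 had 16.1 FPKM. Its maturation factor Duoxa2 (ENSMUSG00000027225, chr2:122129381-122133366) had the same order of libraries, at 5.21, 4.22, 2.096 and 3.85 FPKM. For both genes fresh frozen 1 stood low and fresh frozen 2 lay just under the RVC libraries.

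By gene sums, the 2 genes kept nearly the same proportion to each other while both varied between libraries. Duox2 exceeded Duoxa2 by 3.70, 4.15, 4.23 and 4.19 times in the 4 libraries, a mean ratio of 4.07 ± 0.248 (SD, n = 4). With the most abundant transcript of each gene the mean ratio was 3.48 and less even. Duox2 was then at 16.36, 16.30, 6.70 and 14.23 FPKM, while Duoxa2, with 1 transcript, was unchanged. The coefficient of variation was 6.09% for the ratio of gene sums, 29.6% for Duox2 and 33.8% for Duoxa2, and fresh frozen 1 gave most of that variation. By gene sums, the ratio of Gpx4 to Gpx1 had a like coefficient, 7.30%, but those genes varied less by themselves (12.1% and 8.41%). The mean of that ratio was 0.465 by gene sums and 0.523 with the most abundant transcript of each gene. By contrast the ratio of Duox2 to Nox1, added after the values were seen, was 6.38 and 4.23 in RVC and 1.65 and 2.86 in fresh frozen. Duoxa2 also has 42.8% of its exon bases opposite exons of Duoxa1, which was listed at 1.25 to 1.79 FPKM and did not have the same order of libraries. Duox2 has no such overlap among the transcripts listed.

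The log2 fold change between groups was 0.58 for Duox2 (SE 0.244, limma adjusted p = 0.269) and 0.56 for Duoxa2 (SE 0.228, limma adjusted p = 0.261). The difference between the 2 fresh-frozen libraries, -0.82 for Duox2 and -0.67 for Duoxa2, was larger than the difference between groups. Without fresh frozen 1 the estimates were 0.17 and 0.22, so their size rests on that library.

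**Figure D3:**
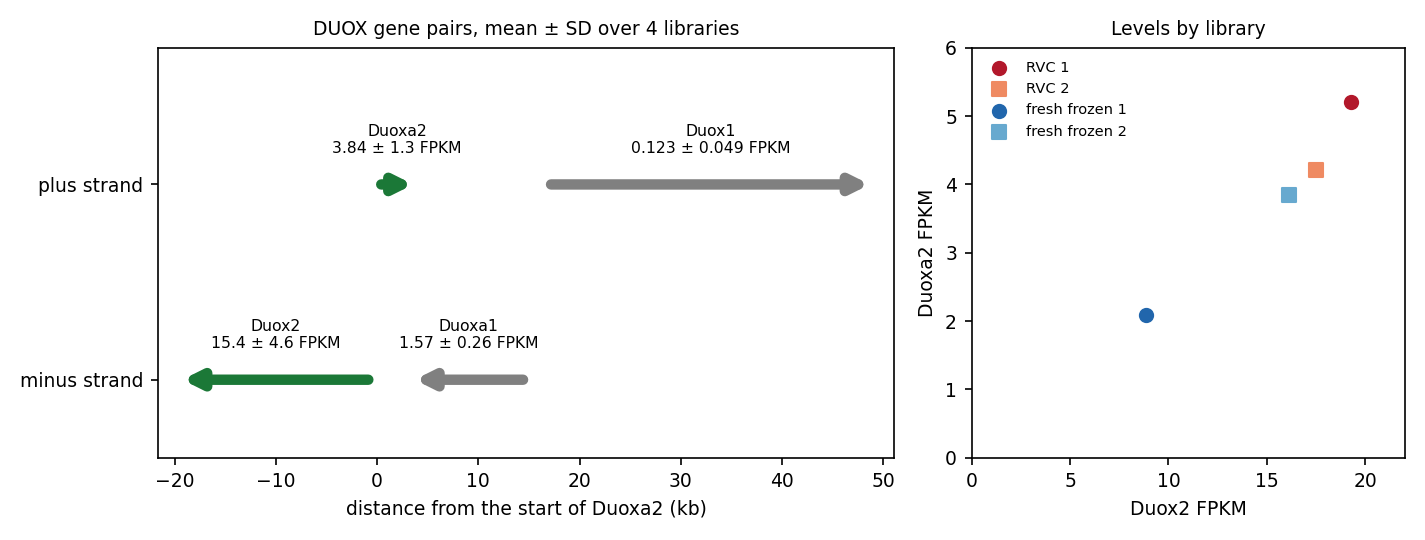
Left, positions and strands of the DUOX genes by distance from the start of Duoxa2 in kb, with gene FPKM as mean ± SD over 4 libraries; green arrows are genes of the set and grey arrows the paralogous pair. Right, Duoxa2 against Duox2 FPKM, 1 point per library, where fresh frozen 1 lies at 8.87 and 2.096 FPKM and the other 3 libraries lie between 16.1 and 19.3 FPKM of Duox2.

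Duox2 and Duoxa2 are transcribed away from each other from starts that are 449 bases apart in GENCODE vM39 (chr2:122128931-122129379, GRCm39). The paralogous pair, Duoxa1 and Duox1, lies on the far side of Duoxa2 and was much lower, at 1.57 ± 0.258 and 0.123 ± 0.049 FPKM. The 300 bases of the gap next to Duoxa2 (chr2:122129080-122129379, plus strand, 5′ to 3′) are given because the 2 genes that share this gap had the same order of libraries. Capitals mark exact matches to a TATA box (TATAAA) and a GC box (GGGCGG, here its complement CCGCCC).
Gap next to Duoxa2: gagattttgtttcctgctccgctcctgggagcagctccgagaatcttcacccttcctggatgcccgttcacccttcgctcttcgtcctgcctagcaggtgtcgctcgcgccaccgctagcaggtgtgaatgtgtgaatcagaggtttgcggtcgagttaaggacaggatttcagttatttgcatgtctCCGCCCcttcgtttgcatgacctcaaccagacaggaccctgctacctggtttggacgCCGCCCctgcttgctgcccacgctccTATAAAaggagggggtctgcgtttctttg
The TATA letters stood 29 to 24 bases before the Duoxa2 start, and the GC boxes 112 to 107 and 55 to 50 bases before it. Searched on both strands in 21751 windows of 300 bases upstream of gene starts, TATAAA was in 14.2%, GGGCGG in 37.6% and CCAAT in 40.5%. Duoxa2 was the 1 gene of the 9 with TATAAA in its window. The window upstream of Duox2 held none of the 3 motifs, while Noxa1, Gpx2 and Gpx4 held CCAAT, and Noxo1 and Gpx4 held GGGCGG. These matches are letters only and no binding was measured.

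Nos2 (ENSMUSG00000020826, chr11:78811613-78851080), whose product makes nitric oxide in inflamed epithelium and macrophages, was at 0.631 and 0.313 FPKM in RVC against 0.322 and 0.175 in fresh frozen, too low to be tested. Its main coding transcript ENSMUST00000018610 was listed at 0.348 and 0.313 FPKM in RVC against 0.162 and 0.175 in fresh frozen. Of 10 other genes of nitric oxide and arginine metabolism, 6 were tested and 0 of 6 passed at the adjusted or at the unadjusted level. All 6 estimates were above 0, as were 7023 of the 13771 estimates over all tested genes. Their median log2 fold change was 0.18 (0.47 without fresh frozen 2). The most abundant were Ass1 and Asl, which together rebuild arginine from citrulline, at 15.0 ± 3.18 and 11.9 ± 0.582 FPKM (SD, n = 4). Among cytokine and signalling genes upstream of inducible oxidases, 7 of 14 were tested and 0 passed, with 2 higher and 1 lower in RVC at the unadjusted level. Il17a and Il22, cytokines known to raise epithelial Duox2 and Nos2, were listed at 0 in all 4 libraries. Irf1, an interferon-response factor, and Il22ra1, a subunit of the IL-22 receptor, led this list at 62.8 ± 7.42 and 24.9 ± 5.18 FPKM. Their RVC libraries lay above the fresh-frozen libraries, with log2 fold changes of 0.24 (SE 0.119, limma adjusted p = 0.317) and 0.47 (SE 0.126, limma adjusted p = 0.156).

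Gpx1 (ENSMUSG00000063856, chr9:108216102-108217542) had the highest level of the set, 136.66 and 143.22 FPKM in RVC against 141.21 and 118.34 in fresh frozen. The groups overlapped, with a log2 fold change of 0.12 (95% interval -0.16 to 0.40, limma adjusted p = 0.611). Its transcript ENSMUST00000082429, the 1 of 4 whose coding sequence holds the selenocysteine codon, carried 72.6% to 80.8% of the gene sum. The rest was mainly ENSMUST00000193987, which is annotated with a shorter coding sequence without that codon and carried 18.7% on average.

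Gpx2 (ENSMUSG00000042808, chr12:76839107-76842273) was listed at 62.9 FPKM in RVC 1 and 74.6 FPKM in RVC 2, while fresh frozen 1 had 107.65 FPKM and fresh frozen 2 had 100.4 FPKM. The RVC libraries lay below the fresh-frozen libraries, with within-group differences of -0.24 in RVC and 0.070 in fresh frozen on the log2 scale. Fresh frozen was 1.51 times RVC, a log2 fold change of -0.59 (SE 0.120) and a 95% interval of -0.87 to -0.31. This was the smallest p of the set, 0.00159 before adjustment, and it did not pass (limma adjusted p = 0.129). With any 1 library left out the estimate stayed between -0.71 and -0.47. A single transcript, ENSMUST00000082431, with the selenocysteine codon in its coding sequence, held 99.1 ± 0.132% of the gene sum (SD, n = 4). A processed copy, Gpx2-ps1, is 98.1% identical over 572 aligned bases and was listed at 2.05 to 3.29 FPKM, so a part of its reads may belong to Gpx2. Adding it to Gpx2 left the log2 fold change at -0.59.

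Gpx4 (ENSMUSG00000075706, chr10:79883000-79892273) was listed at 70.4 and 64.7 FPKM in RVC against 63.7 and 52.2 in fresh frozen. RVC was higher without overlap, but by a margin of about 1 FPKM between the nearest libraries, and the log2 fold change was 0.23 (SE 0.125, limma adjusted p = 0.357). Gpx4-ps2 on chromosome 10 is 99.7% identical over 777 aligned bases and was listed at 26.5, 25.6, 23.8 and 17.7 FPKM, so how many of its reads come from Gpx4 is uncertain. With both Gpx4 copies added the sum was 97.6, 91.1, 88.2 and 70.8 FPKM, and the log2 fold change 0.26.

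The estimates for 2 transcripts of Gpx4 lay further from 0 than that of the gene. ENSMUST00000105372, which encodes the form of 591 coding bases, was listed at 66.4 and 63.6 FPKM in RVC against 45.9 and 41.7 in fresh frozen. ENSMUST00000183037, with 471 coding bases, was at 2.13 and 0.0071 FPKM in RVC against 16.7 and 9.05 in fresh frozen, that is 3.02% and 0.01% of the gene sum in RVC and 26.2% and 17.3% in fresh frozen. The log2 fold changes were 0.57 (SE 0.104, limma adjusted p = 0.214) and -2.90 (SE 0.593, limma adjusted p = 0.232). Neither passed the threshold, and the shares come from one likelihood split of the same reads, so they are not independent. Both transcripts hold the selenocysteine codon in their coding sequence, and transcripts annotated in this way made up 98.2 ± 0.589% of Gpx4 (SD, n = 4). The nuclear form ENSMUST00000097227 was at 0.22 to 0.34 FPKM, with lower confidence bounds at or near 0. Of the 35 transcripts of the 9 genes, 14 were tested and 0 passed, against 0.00414% of all 24174 transcripts tested. At an unadjusted p under 0.05 there were 5 of 14, 1 higher and 4 lower in RVC, where 15.5% of all tested transcripts reached that level (8.1% higher and 7.36% lower). Groups did not overlap for 5 transcripts that were higher and 4 that were lower in RVC, where 50.2% of all tested transcripts did not overlap (25.8% higher and 24.4% lower).

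**Figure D4:**
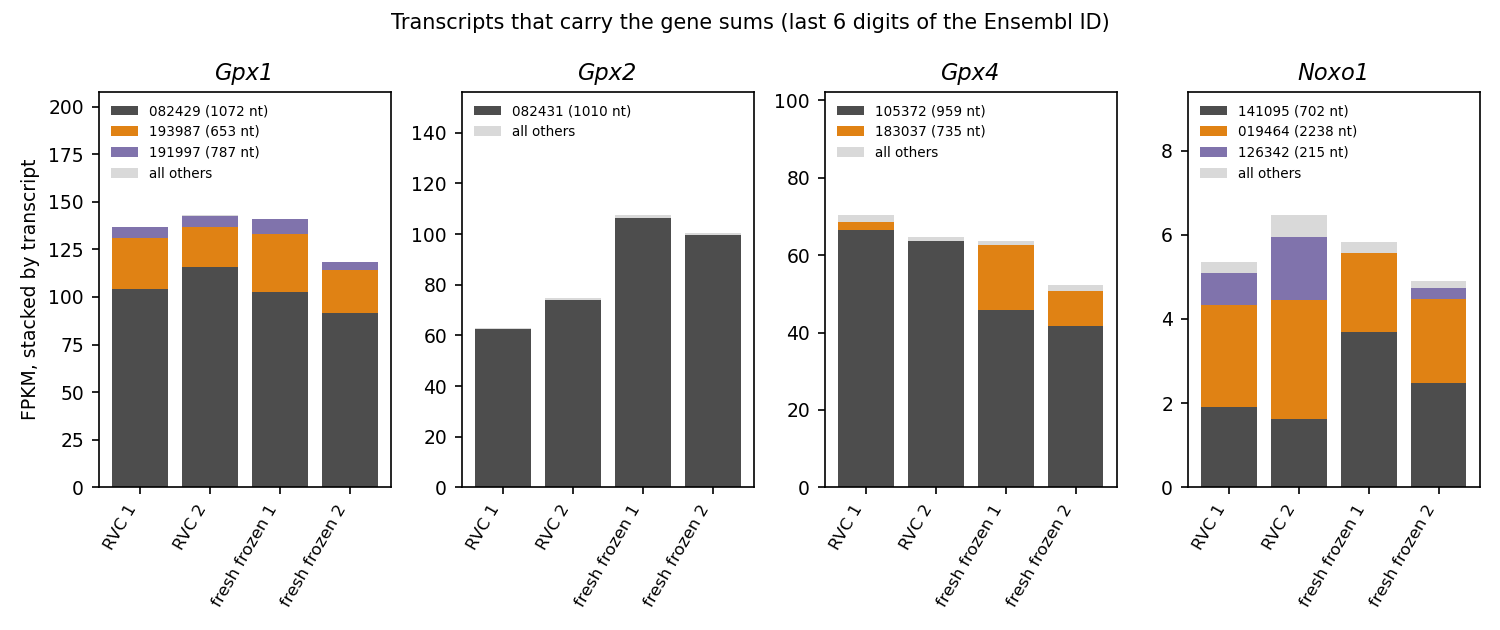
Transcript FPKM stacked to the gene sum (vertical, linear from 0) in the 4 libraries (horizontal) for Gpx1, Gpx2, Gpx4 and Noxo1, with transcripts named by the last 6 digits of the Ensembl ID. Gpx2 is almost wholly 1 transcript (99.1% on average), and the shorter Gpx4 transcript (orange) makes up 26.2% and 17.3% of the sum in fresh frozen and 3.02% and 0.01% in RVC.

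The proportions among the peroxidases followed these values. By gene sums, Gpx4 stood to Gpx1 at 0.515, 0.452, 0.451 and 0.441, a mean of 0.465 ± 0.034 (SD, n = 4). The mean was 0.523 with the most abundant transcript of each gene. That Gpx4 transcript was at 66.4 and 63.6 FPKM in RVC against 45.9 and 41.7 in fresh frozen. Reads listed under the Gpx4 copies are not in this ratio. With both copies added Gpx4 was at 97.6, 91.1, 88.2 and 70.8 FPKM, so its proportion to Gpx1 may be higher. Gpx2 stood to Gpx1 at 0.460 and 0.521 in RVC and 0.762 and 0.848 in fresh frozen, with no overlap between groups. With the most abundant transcript of each gene in place of the sum, the mean ratio of Gpx2 to Gpx1 was 0.841 instead of 0.648. Of the other glutathione peroxidases, Gpx3 was listed at 14.5 to 17.5 FPKM and Gpx8, an enzyme of the endoplasmic reticulum, at 3.38 to 7.54 FPKM. Gpx5 and Gpx6 were listed at 0 in all 4 libraries and Gpx7 was below 1 FPKM.

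The wider redox lists did not contain a gene past the adjusted threshold. Over all 10 lists, which share some genes, 85 of 109 genes were tested and 0 passed. At an unadjusted p under 0.05 there were 10 with higher and 8 with lower estimates in RVC. Of all tested genes 18.4% reached that level (9.38% higher and 8.99% lower), and the counts of each list are to be read beside that share. The median log2 fold change of the 85 was 0.071, against 0.0066 over all tested genes. For glutathione synthesis and reduction, 9 of 11 were tested, with 2 higher and 2 lower at the unadjusted level and a median near 0. Pgd and Idh1, which supply NADPH, led it at 63.9 ± 3.05 and 47.6 ± 6.83 FPKM, the latter with a log2 fold change of -0.32 (SE 0.107, limma adjusted p = 0.197). All 17 genes of the superoxide dismutase, catalase, peroxiredoxin and thioredoxin list were tested, with 2 higher and 1 lower at the unadjusted level. Prdx6, a peroxiredoxin that also reduces phospholipid peroxides, was listed at 4451, 4412, 4025 and 2556 FPKM, above Gpx1 in each library, and has a retrogene copy, Prdx6b, that may share its reads. Thioredoxin (Txn1) was at 672, 647, 672 and 778 FPKM.

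For the machinery that inserts selenocysteine, 8 of 9 genes were tested and 0 reached even the unadjusted level, with a median of 0.019. Sephs2, which makes the selenium donor, was at 16.2 ± 1.67 FPKM, and Rpl30, a ribosomal protein that also binds the selenocysteine insertion element, at 470 ± 67.9 FPKM. Among other selenoproteins, 17 of 18 were tested, with 1 higher and 1 lower at the unadjusted level. Selenop, the selenium carrier of plasma, was listed at 736 and 658 FPKM in RVC against 666 and 511 in fresh frozen, and Selenof, a protein of the endoplasmic reticulum, at 89.0 ± 10.6 FPKM.

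The NRF2 list holds the main transcription factor of the oxidant response (Nfe2l2), its repressor Keap1 and known targets; Gpx2 is itself a known target but is not in the list. Of its 12 tested genes, 0 were higher and 2 lower at the unadjusted level, and the median was -0.21 (-0.058 without fresh frozen 1). Gstm1, a glutathione transferase, and Txnrd1, the thioredoxin reductase, led it at 72.0 ± 7.04 and 48.1 ± 3.81 FPKM, with log2 fold changes of -0.11 and 0.046. Of 9 tested ferroptosis genes, 2 were higher and 2 lower at the unadjusted level. The ferritin chains Fth1 and Ftl1, which store iron, had log2 fold changes of 0.36 (SE 0.137, limma adjusted p = 0.240) and 0.41 (SE 0.126, limma adjusted p = 0.179), and both, like Rpl30, have processed copies that may share their reads. The transferrin receptor Tfrc, named after its values were seen, was at 18.6 and 18.4 FPKM in RVC against 37.8 and 48.8 in fresh frozen, a log2 fold change of -1.17 (limma adjusted p = 0.0743), the smallest adjusted p of the lists.

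**Figure D5:**
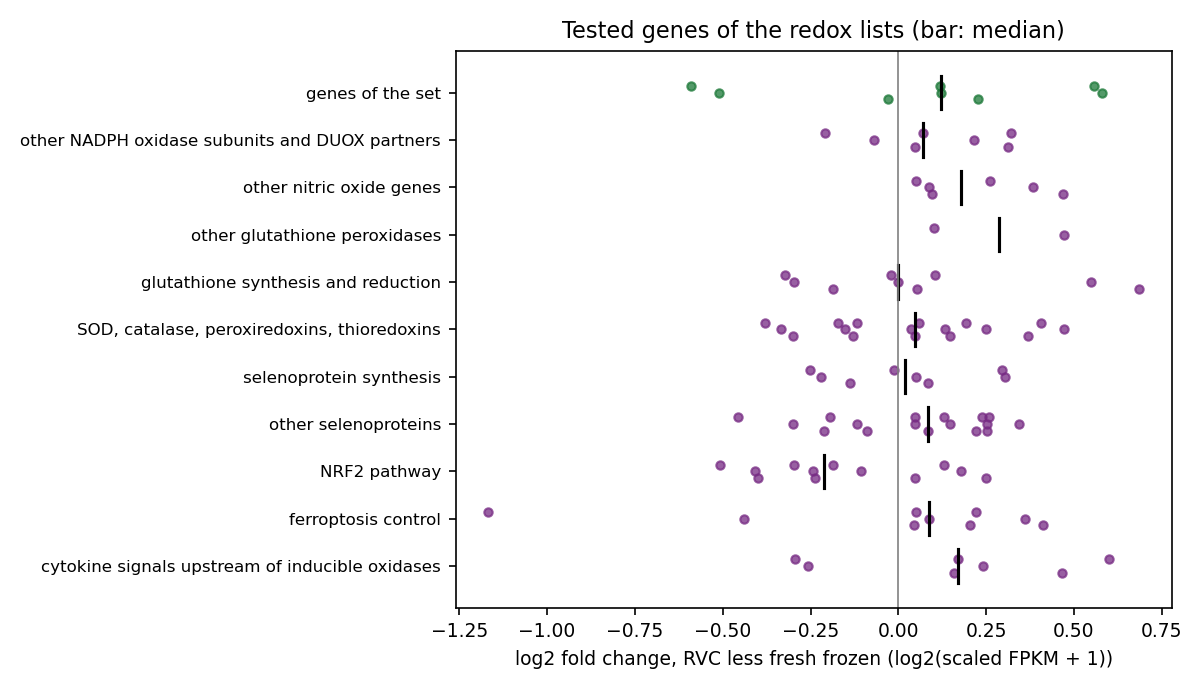
Log2 fold change, RVC less fresh frozen, of each tested gene (points, horizontal axis) in the 8 tested genes of the set (green) and in 10 redox lists (purple). Black bars are medians, which run from -0.21 for the NRF2 list to 0.29 for the other glutathione peroxidases (2 genes; 0.16 without RVC 2), and the lowest point is Tfrc at -1.17.

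Markers of other cell types were unequal between the groups. All 7 smooth muscle markers were higher in RVC without overlap, with a summed 1110 and 1661 FPKM in RVC against 680 and 731 in fresh frozen, led by Actg2 (log2 fold change 1.24, limma adjusted p = 0.129) and Acta2 (0.98, limma adjusted p = 0.131). All 5 endothelial markers were higher too, at a summed 18.9 and 18.7 against 9.47 and 11.5 FPKM, as were all 5 tested plasma cell markers and 5 of 7 tested macrophage markers. None of these markers passed the adjusted threshold, and over all tested genes 26.5% were higher in RVC without overlap. The 7 epithelial markers summed to 4897 and 4688 FPKM in RVC against 5100 and 3896 in fresh frozen, and 0 of 7 reached the unadjusted level. All 7 estimates were above 0, 3 of them without overlap, where 7023 of the 13771 estimates over all tested genes were above 0. The 6 absorptive colonocyte markers summed to 7794 and 6767 FPKM in RVC against 6454 and 5529 in fresh frozen. Of these 6, 5 estimates were above 0 and 1 below, and 4 were higher in RVC without overlap. Of the crypt and proliferation markers, 2 of 5 tested were lower in RVC at that level, Mki67 with a log2 fold change of -0.62 (SE 0.138, limma adjusted p = 0.131) and Top2a with -0.56. The other 3 had estimates above 0, with overlapping groups, among them Pcna, the most abundant at 24.3 ± 2.74 FPKM (log2 fold change 0.15), and the median of the 5 was 0.022. The part of these shifts in the values of Nox1, Gpx2, Duox2 and Duoxa2 was not tested.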

How the data were processed

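Ribosomal RNA was depleted from total RNA, and libraries made with the KAPA HyperPrep kit were sequenced as 150-bp pairs on a NextSeq instrument, per the labels' protocols. Reads were aligned to GRCm39 with TopHat 2.1.1 and abundances estimated with Cufflinks 2.2.1 at default settings, per the submitters' processing notes. A strand setting, annotation release and read counts are not given in the sources used here. The authors deposited FPKM per transcript, their confidence bounds, the coverage signal and transcript length, per the file headers. Cufflinks divides reads between overlapping or near-identical transcripts by likelihood, and one whose reads went to a neighbour can be listed near 0. No count model was fitted, since FPKM are not counts.

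Gene FPKM was summed over transcripts, scaled by median ratio, and analysed as log2(scaled FPKM + 1). Genes and transcripts with a mean of at least 1 FPKM, a longest transcript of at least 300 nt and status OK in all 4 libraries were tested with limma 3.58.1 in R 4.3.3 (lmFit, eBayes with trend, two-sided, without covariates), Benjamini-Hochberg adjustment over all tested features and a threshold of 0.05. The fit was tested on simulated data. Levels and ratios use unscaled FPKM. Relative depth is the median ratio of coverage to FPKM. Sequences and transcript classes came from GRCm39 and GENCODE vM39, which holds 99.1% of the deposited transcripts. Of these, 74.3% had the same start and end there. Shares of overlapping exon bases are of vM39 exons and may differ from those of the deposited transcripts. For example, ENSMUST00000019464 of Noxo1 has 2502 exon bases in vM39 against a deposited length of 2238 nt. Tables and alignments used Python 3.11.15, pandas 2.3.3 and Biopython 1.88, and figures matplotlib 3.10.9.

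The genes, lists and tests were chosen with earlier results of these data known. Named genes were all analysed members and, from each list, the 2 of highest mean FPKM, those past the threshold and those at 0 in all libraries, from marker lists only where a result used them. Others are said to have been named after their values were seen. Alternatives were other pseudocounts, scalings and filters, a replicate block, no trend, other ways to combine transcripts, and each library left out.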

Additional observations from a re-analysis of the deposited data

How the results depend on the processing

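No tested gene of the set passed the adjusted threshold (limma) under any of the 14 alternatives run, of which a mean of at least 5 FPKM left out Nox1 and Duoxa2, with adjusted p from 0.0776 (Duox2 without fresh frozen 2) upward, and 1 to 4 of them had an unadjusted p under 0.05. The count over all genes was 5, with 2530 at an unadjusted p under 0.05. It was 0 with no filter on low values (3531 unadjusted), with no mean-variance trend (2461) and when sums left out transcripts under 300 nt (2577). It was 2 with a mean of at least 5 FPKM and 2 when each gene was read from its most abundant transcript. Leaving out each library gave 14 to 30. For transcripts the count was 1, against 0 with no filter (9167 unadjusted), 6 with a mean of at least 5 FPKM and 0 to 0 with each library left out (2060 to 2910 unadjusted). The cause of these changes was not tested.

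A replicate block on sample number gave 112 genes and, for transcripts, 1. With 2 pairs the samples share only a number, and the deviations of RVC 1 and fresh frozen 1 had a correlation of -0.13 across 13771 genes. The crossed pairing, added after the data were seen, gave 12 genes and, for transcripts, 1. No gene of the set was called with either block.

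Of 110 alternative fold changes of the set, 105 kept their direction. Noxo1 turned to -0.10 with short transcripts left out and to -0.55 with the most abundant transcript. Noxa1, near 0, turned to 0.061 with the most abundant transcript, and ranged from -0.079 to 0.018 with each library left out, including 0.0084 without fresh frozen 2. Over the libraries left out, Nox1 ranged from -0.69 to -0.34, Duox2 from 0.17 to 0.99, Duoxa2 from 0.22 to 0.89, Gpx1 from 0.0062 to 0.23 and Gpx4 from 0.10 to 0.35. Of the list medians not given beside their result, 5 moved when a fresh-frozen library was left out: to 0.19 for peroxiredoxins and their relatives, 0.20 for other selenoproteins and 0.24 for ferroptosis genes without fresh frozen 1, and to -0.17 for glutathione synthesis and -0.11 for selenoprotein synthesis without fresh frozen 2. Depth limits low genes such as Nos2, whose coding transcript had bounds of 0.224 to 0.473 FPKM in RVC 1 and 0.073 to 0.252 in fresh frozen 1.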
